A study of Mus musculus with 19 samples.

Results

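The 10 genes described here encode enzymes that build, sulfate or trim heparan sulfate: Ext1, Ext2, Ndst1, Hs2st1, Hs3st1, Hs3st3b1, Hs6st1, Hs6st2, Sulf1 and Sulf2. They were chosen by name, as 10 of the 47643 gene symbols in the deposited table, and all 10 were among the 13520 genes with at least 1 TPM (a transcript level scaled for gene length and to a fixed total per library) in at least 4 libraries. The study sequenced RNA from the cortex of mouse embryos at E14.5 (E, embryonic day). Wildtype controls gave 6 libraries of dorsal and 5 of medial cortex, and mutants carrying GFAP::Cre; SmoM2 gave 4 of each. SmoM2 is a permanently active form of Smoothened, the transducer of the Hedgehog signal at the cell membrane, and it is switched on only in cells in which Cre, driven by GFAP promoter sequence, has acted and in their progeny. The libraries are whole tissue and mix recombined with other cells, so fewer cells of a type and less RNA per cell cannot be told apart. The labels number the libraries of a group without naming embryos, and p-values measure the spread between these libraries. By sex genes (below) each control group holds more than 1 embryo, while for the mutants the values do not show how much of the spread is technical. The library protocol speaks of medial or lateral cortex where the tissue labels have medial and dorsal, and the labels' dorsal is used here.

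Heparan sulfate is a long sugar chain carried by core proteins at the cell surface and in the extracellular matrix, such as glypicans, syndecans, perlecan and agrin. The chain is polymerised by the Ext1 and Ext2 complex, and is then modified in the Golgi by N-deacetylation and N-sulfation, epimerisation, and sulfation at the 2-O, 6-O and 3-O positions, while the Sulf enzymes remove 6-O-sulfate outside the cell. The sulfation pattern affects the binding of FGF, Wnt, BMP and Hedgehog ligands, and in the developing cortex heparan sulfate takes part in signalling to progenitors and in axon guidance.

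The Hedgehog target genes checked the labels: Gli1 lay between 0.200 and 1.08 TPM in the 11 control libraries and between 24.3 and 48.1 TPM in the 8 mutant libraries. The cortical transcription factor Emx1 was detected in every library, at 101.5 TPM or more. By Xist and Ddx3y, control libraries numbered 2, 3 and 4 were female, those numbered 1, 5 and 6 were male, and all 8 mutant libraries were male. These genes give the sex of a library and not the number of embryos. With each number read as 1 embryo (next sentence), the controls are 3 female and 3 male embryos and the mutants 4 male embryos. Dorsal and medial libraries with the same genotype and number deviated together from their group means, so the numbers were treated as embryos within a genotype, a reading from the values and not the labels. Summed over 8 neuron markers, the level was 5590 ± 274 TPM (SD, n = 6) in dorsal controls, 4315 ± 722 (n = 4) in dorsal mutants, 3981 ± 416 (n = 5) in medial controls and 2854 ± 350 (n = 4) in medial mutants, and 6 of the 8 markers fell in the mutants of each region. Summed over 8 cortical progenitor markers, the level was 1634 ± 72.8, 1765 ± 185, 2364 ± 226 and 2422 ± 205 TPM in the same order. Of these 8 markers 2 rose and 3 fell in dorsal mutants, with a median log2 change of -0.16. In medial mutants 2 rose and 2 fell, with a median of -0.12. Of all tested genes 9.93% rose and 27.6% fell dorsally, and 9.44% rose and 30.2% fell medially. The part of these tissue differences in the results below was not tested.

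Of the enzymes read from the RefSeq promoter table (GRCm38.p6), those with a called change and a single start were Hs3st1, Hs2st1, Hs6st1 and Hs3st3b1. Their 250 bases upstream of that start, 5′ to 3′ on the gene's strand, are shown because these genes moved in different directions. Capitals mark the GC box GGGCGG, or its reverse complement.

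Hs3st1 (chr5:39644632-39644881, minus strand): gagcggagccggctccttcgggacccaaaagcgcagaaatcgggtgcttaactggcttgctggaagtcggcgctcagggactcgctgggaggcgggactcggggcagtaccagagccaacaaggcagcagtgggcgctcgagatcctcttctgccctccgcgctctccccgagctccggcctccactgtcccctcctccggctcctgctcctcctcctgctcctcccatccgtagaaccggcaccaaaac

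Hs2st1 (chr3:144570217-144570466, minus strand): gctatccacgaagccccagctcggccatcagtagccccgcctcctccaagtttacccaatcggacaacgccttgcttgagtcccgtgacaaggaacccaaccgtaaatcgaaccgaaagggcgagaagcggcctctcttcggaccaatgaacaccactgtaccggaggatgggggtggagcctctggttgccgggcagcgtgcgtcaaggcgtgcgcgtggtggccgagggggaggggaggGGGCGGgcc

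Hs6st1 (chr1:36068150-36068399, plus strand): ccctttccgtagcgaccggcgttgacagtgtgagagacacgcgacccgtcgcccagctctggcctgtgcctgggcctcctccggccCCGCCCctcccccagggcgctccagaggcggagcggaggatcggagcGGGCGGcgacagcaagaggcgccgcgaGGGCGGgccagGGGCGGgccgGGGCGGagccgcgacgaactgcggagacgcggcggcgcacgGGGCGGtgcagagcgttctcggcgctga

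Hs3st3b1 (chr11:63922285-63922534, minus strand): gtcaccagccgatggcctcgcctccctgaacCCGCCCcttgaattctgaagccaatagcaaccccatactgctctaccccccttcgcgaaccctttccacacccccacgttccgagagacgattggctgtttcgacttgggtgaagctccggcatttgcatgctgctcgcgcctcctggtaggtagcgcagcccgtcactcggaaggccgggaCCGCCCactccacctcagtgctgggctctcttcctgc

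Windows of 7 of the 10 enzymes, 9 in all, were read from this table. Ext1 and Sulf1 had no entry, and Ndst1, on chromosome 18, was not read. The core of the GLI binding motif, CCACCCA, which overlaps the CACCC box, was in 0 of the 9 windows on either strand, against 8.11% of the 32851 windows of the same length in the table. Hs3st1 had no GC box, Hs2st1 had 1 (bases -9 to -4 from the start), Hs3st3b1 had 2 and Hs6st1 had 6, against 32.7% of all windows with at least 1. These 4 windows were rich in G and C, with 66.0% in Hs3st1, 64.4% in Hs2st1, 76.4% in Hs6st1 and 62.4% in Hs3st3b1, against a median of 52.4% over all windows. They held 19, 21, 37 and 17 CpG dinucleotides in the same order, against a median of 6. The matches describe letters in these windows only. The start used for Hs3st1 lies inside the wider GENCODE gene span.

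In control dorsal cortex the most abundant enzymes per length were Hs2st1 at 68.8 ± 4.14 TPM (SD, n = 6), Hs6st2 at 58.5 ± 6.45, Ndst1 at 57.7 ± 2.78, Hs6st1 at 55.1 ± 4.78 and Hs3st1 at 47.5 ± 6.62. Ext1 at 22.2 ± 1.91, Ext2 at 19.5 ± 1.68 and Hs3st3b1 at 17.7 ± 2.54 TPM were intermediate. The Sulf genes were the lowest, with Sulf2 at 3.74 ± 0.635 and Sulf1 at 0.585 ± 0.320 TPM. Neighbours in this order from Hs6st2 to Hs6st1, and from Ext1 to Hs3st3b1, lay within each other's spread. The summed level of the 10 genes was 351 ± 13.2 TPM in control dorsal, 301 ± 7.39 in mutant dorsal, 349 ± 15.0 in control medial and 326 ± 13.6 in mutant medial libraries.

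**Figure D1:**
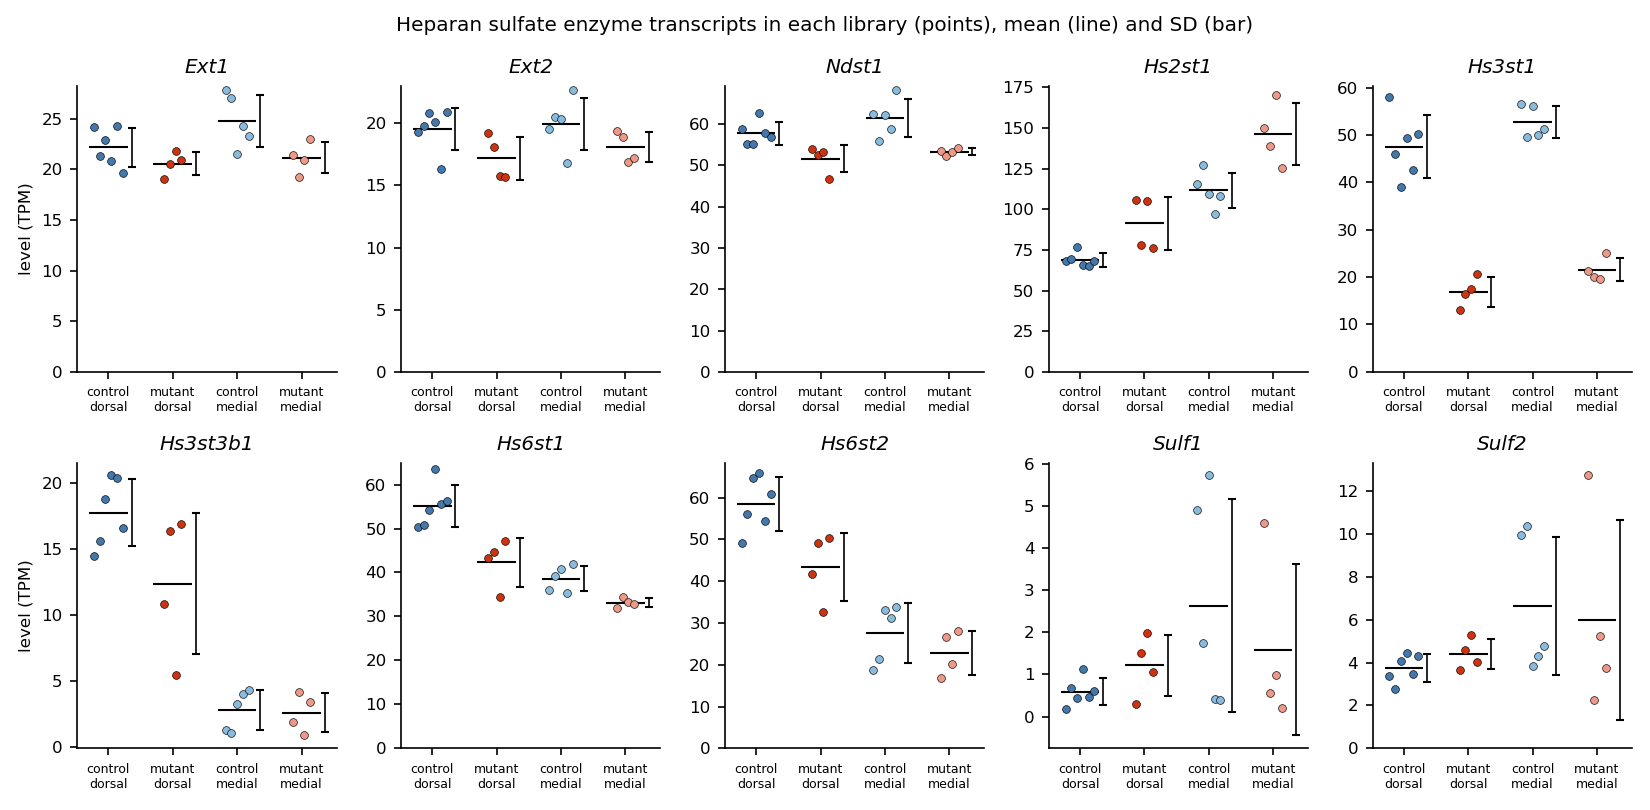
Level in TPM (linear axis, 1 panel per enzyme) in every library (points) of the 4 groups, with the group mean (line) and SD (bar). The Hs3st1 points of both mutant groups lie below all control points, and the Hs3st3b1 points of both medial groups lie below all dorsal points.

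Comparing mutants with controls asks which enzymes changed with active Smoothened. The 3-O-sulfotransferase gene Hs3st1 fell 2.73-fold in dorsal and 2.39-fold in medial cortex, and the 2-O-sulfotransferase gene Hs2st1 rose 1.31-fold and 1.30-fold. The 6-O-sulfotransferase gene Hs6st1 and the N-deacetylase and N-sulfotransferase gene Ndst1 fell by smaller amounts in both regions, and the polymerase gene Ext1 fell in medial cortex, while its dorsal change did not pass. In dorsal cortex 1 enzyme rose and 3 fell, where 37.5% of all tested genes were called (9.93% higher and 27.6% lower). The groups did not overlap for the 3 that fell, as for 24.8% of all tested genes (7.25% higher and 17.6% lower). In medial cortex 1 rose and 4 fell, where 39.6% of all tested genes were called (9.44% higher and 30.2% lower). The groups did not overlap for 3 of the 4 that fell, as for 30.4% of all tested genes (7.63% higher and 22.7% lower). The shares of the 10 enzymes called were near these backgrounds. Their median log2 change was -0.17 dorsally and -0.21 medially, against -0.10 and -0.11 over all tested genes. All calls are at a Benjamini-Hochberg adjusted p under 0.05 from limma, and log2 changes and folds are on the log2(TPM + 1) scale with standard errors.

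The split of calls over all genes depended on the scaling: with median-ratio rescaling 2109 rose and 1922 fell dorsally (1343 and 3727 as deposited), and 2179 rose and 2261 fell medially (1276 and 4081 as deposited). With quantile normalization the numbers were 1959 and 2173 dorsally and 2164 and 2275 medially. Quantile normalization moved the median of all genes by 0.11 on the log2 scale in medial cortex. Small decreases are affected by this, and for Ext1, Ndst1 and Hs6st1 the rescaled changes stand beside the results below.

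**Figure D2:**
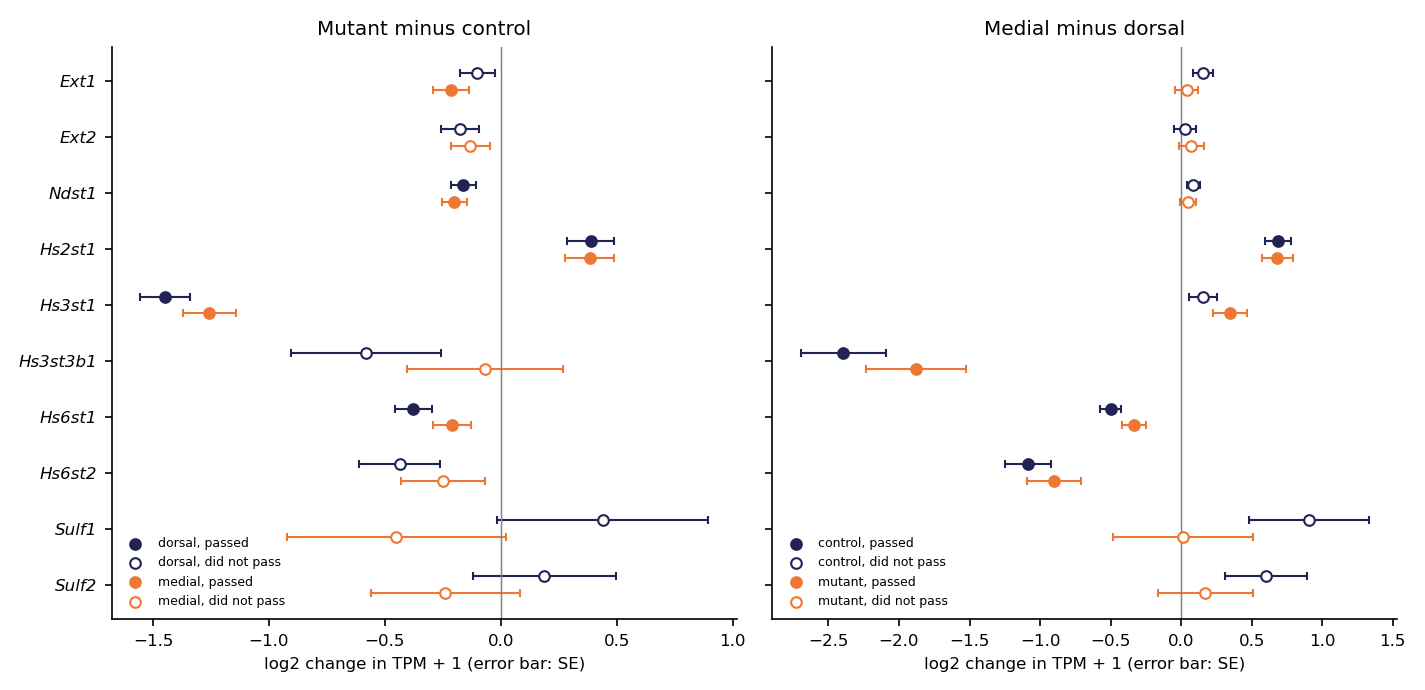
Log2 change of TPM + 1 with its standard error from limma for each enzyme, mutant minus control on the left (dorsal and medial) and medial minus dorsal on the right (control and mutant); filled points passed the threshold and open points did not. On the left Hs3st1 stands apart at -1.45 and -1.26 and Hs2st1 lies above 0 at 0.39 and 0.38, and on the right Hs3st3b1 lies lowest at -2.39 and -1.88.

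The changes of the chain polymerase genes were small. Ext1 (chr15:53064038-53346159, GRCm38, minus strand) had 27.8, 27.0, 21.6, 24.3 and 23.3 TPM in the control medial libraries and 21.5, 19.3, 20.9 and 23.0 TPM in the mutant medial libraries. These groups overlapped, with a log2 change of -0.22 ± 0.08 (limma adjusted p = 0.0333). The change was smaller and not called with median-ratio rescaling (-0.12, adjusted p = 0.253), with quantile normalization (-0.098, 0.318) and without the 3 libraries with high Wnt3a described below (-0.13, 0.288), which hold the highest control values. The call was also lost with no filter (0.0574), with sex as a covariate (0.0761) and when only the 2 medial groups were fitted (0.0626), and without any 1 of control medial libraries 2 and 3 or mutant medial libraries 1, 2 and 3 (up to 0.113). Dorsally Ext1 was between 19.6 and 24.3 TPM in controls and between 19.04 and 21.8 TPM in mutants, with a change of -0.10 ± 0.07 (adjusted p = 0.306). Ext2 (chr2:93661028-93822568, minus strand), the partner subunit, did not pass in either region, at -0.18 ± 0.08 dorsally (adjusted p = 0.0981) and -0.13 ± 0.09 medially (adjusted p = 0.235). Its dorsal value passed without control dorsal library 5, its lowest control at 16.3 TPM (adjusted p = 0.0297).

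Ndst1 (chr18:60684494-60748650, minus strand) starts all later sulfation by replacing acetyl with sulfate groups on the chain. Its control dorsal libraries ranged from 55.2 to 62.6 TPM with a median of 57.3, and the mutant dorsal libraries had 53.9, 52.4, 53.1 and 46.7 TPM. The groups did not overlap, and the change was -0.16 ± 0.05 (limma adjusted p = 0.0209). Medially the controls had 62.4, 55.8, 62.1, 58.8 and 68.1 TPM and the mutants 53.6, 52.1, 53.2 and 54.1 TPM. The groups again did not overlap, and the change was -0.20 ± 0.05 (adjusted p = 0.00680). Both decreases were small, 1.12-fold and 1.15-fold, and did not pass with median-ratio rescaling, at -0.069 dorsally (adjusted p = 0.360) and -0.096 medially (0.203), or with quantile normalization, at -0.092 (0.200) and -0.13 (0.0784). The dorsal call was also lost without mutant dorsal library 4 (0.0950). Ndst1 overlaps the abundant ribosomal protein gene Rps14 on the opposite strand; Rps14 changed by -0.21 ± 0.04 dorsally and -0.16 ± 0.05 medially, and the use of strand in counting is not given in the sources used here.

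Hs2st1 (chr3:144429706-144570181, minus strand) is the only gene for 2-O-sulfation of heparan sulfate and was the 1 enzyme that rose. Its control dorsal libraries ranged from 65.2 to 76.5 TPM with a median of 68.3, and the mutant dorsal libraries had 105.9, 77.8, 105.1 and 76.4 TPM. The 2 mutant libraries 1 and 3 lay well above all controls, while library 4 was just under the highest control, so the groups overlapped. The dorsal change was 0.39 ± 0.10 (limma adjusted p = 0.00566). Medially the controls had 115.6, 127.3, 109.5, 97.2 and 108.3 TPM and the mutants 149.8, 138.7, 170.6 and 125.5 TPM. Mutant library 4 was under the highest control library and the other mutant libraries were above it, and the change was 0.38 ± 0.10 (adjusted p = 0.00703). Both calls held under all 30 alternatives, with adjusted p up to 0.0319 dorsally and 0.0342 medially. In both regions mutants 1 and 3 were the highest and mutant 4 the lowest.

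Hs6st1 (chr1:36068400-36106446, plus strand) and Hs6st2 (chrX:51387212-51681856, minus strand) add 6-O-sulfate. For Hs6st1 the control dorsal libraries ranged from 50.3 to 63.5 TPM with a median of 54.9, and the mutants had 43.2, 44.6, 34.3 and 47.2 TPM, with no overlap. The dorsal change of Hs6st1 was -0.38 ± 0.08 (limma adjusted p = 0.00111), and it passed under all 30 alternatives. In medial cortex Hs6st1 was 36.03, 39.2, 40.7, 35.2 and 42.0 TPM in controls and 32.0, 34.4, 33.3 and 32.9 TPM in mutants. These groups did not overlap either, but the change of -0.21 ± 0.08 was near the threshold (adjusted p = 0.0459) and did not pass with the embryo as a replicate block (0.0755) or sex as a covariate (0.121). It was smaller and not called with median-ratio rescaling (-0.11, 0.322) and quantile normalization (-0.11, 0.327). It was also lost without any 1 of control dorsal 3, 5 and 6, control medial 3, 4 and 6, mutant dorsal 1 and mutant medial 1 to 4 (adjusted p up to 0.110), and passed under 12 of 30 alternatives.

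For Hs6st2 the control dorsal libraries ranged from 49.2 to 65.9 TPM with a median of 58.5, and the mutant dorsal libraries had 41.7, 49.0, 32.5 and 50.4 TPM. Mutant library 4 overlapped the controls, and the change of -0.44 ± 0.17 missed the threshold (limma adjusted p = 0.0561); the 95% interval ran from -0.78 to -0.10. It passed without any 1 of 5 libraries (controls dorsal 1 and medial 2, mutants dorsal 2, dorsal 4 and medial 1, adjusted p from 0.0358 to 0.0496) and when only the 2 dorsal groups were fitted (0.0165). Medially the change of Hs6st2 was -0.25 ± 0.18 (adjusted p = 0.291). Hs6st1 made up 48.4 ± 1.86% of the summed TPM of Hs6st1, Hs6st2 and Hs6st3 in control dorsal and 49.4 ± 1.73% in mutant dorsal libraries. The summed level was 114 ± 10.4 TPM in control dorsal, 86.1 ± 13.5 in mutant dorsal, 66.6 ± 8.80 in control medial and 56.4 ± 5.87 in mutant medial libraries.

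Hs3st1 (chr5:39613935-39755475, minus strand) adds the rare 3-O-sulfate, the modification known for creating the antithrombin binding site of heparin. The control dorsal libraries ranged from 39.1 to 58.1 TPM with a median of 47.6, and the mutant dorsal libraries had 13.1, 16.4, 17.4 and 20.6 TPM. The highest mutant was well below the lowest control, and the change was -1.45 ± 0.11 (limma adjusted p = 2.53e-08). Medially the controls had 56.5, 49.5, 56.0, 50.1 and 51.3 TPM and the mutants 21.3, 20.1, 19.7 and 25.1 TPM. Here too the groups lay far apart, and the change was -1.26 ± 0.11 (adjusted p = 2.98e-07). Among the 13520 tested genes, the dorsal change of Hs3st1 was at percentile 0.081 from the most negative, and the medial change at percentile 0.436. Both calls held under all 30 alternatives, with log2 changes from -1.54 to -1.34 dorsally and from -1.33 to -1.15 medially. With sex as a covariate the values were -1.47 ± 0.12 and -1.29 ± 0.13.

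Hs3st3b1 (chr11:63885792-63922290, minus strand), whose product makes a 3-O-sulfated chain known as an entry receptor for herpes simplex virus, did not pass in either region. The control dorsal libraries ranged from 14.48 to 20.5 TPM with a median of 17.7, and the mutant dorsal libraries had 10.8, 16.3, 5.51 and 16.8 TPM. Mutant libraries 2 and 4 lay among the controls and libraries 1 and 3 below them, and the change was -0.58 ± 0.32 (limma adjusted p = 0.170, 95% interval -1.22 to 0.05). Library 3 also had the lowest sum of neuron markers among the dorsal libraries, at 3374 TPM. Medially the change was -0.07 ± 0.34 (adjusted p = 0.889), and its sign turned with median-ratio rescaling (0.01) and quantile normalization (0.09).

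The 3-O-sulfotransferase family has 7 members in the table. Their summed level was 132 ± 13.9 TPM in control dorsal, 78.6 ± 22.5 in mutant dorsal, 83.6 ± 8.10 in control medial and 42.5 ± 8.18 in mutant medial libraries. Hs3st1 made up 36.3 ± 5.34% of the dorsal sum in controls and 22.8 ± 7.71% in mutants, and medially 63.3 ± 4.89% in controls and 51.6 ± 7.37% in mutants. Hs3st4, a family member best known from neurons, made up 43.1 ± 3.63%, 52.0 ± 4.11%, 30.2 ± 3.24% and 36.7 ± 3.67% in this order. Its level was 57.0 ± 10.03, 41.2 ± 13.1, 25.4 ± 4.98 and 15.8 ± 4.33 TPM, and it fell in medial mutants by 0.67 ± 0.22 (limma adjusted p = 0.0191). That call was lost with median-ratio rescaling, quantile normalization or sex as a covariate, and without control medial library 6 or mutant medial library 3.

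**Figure D3:**
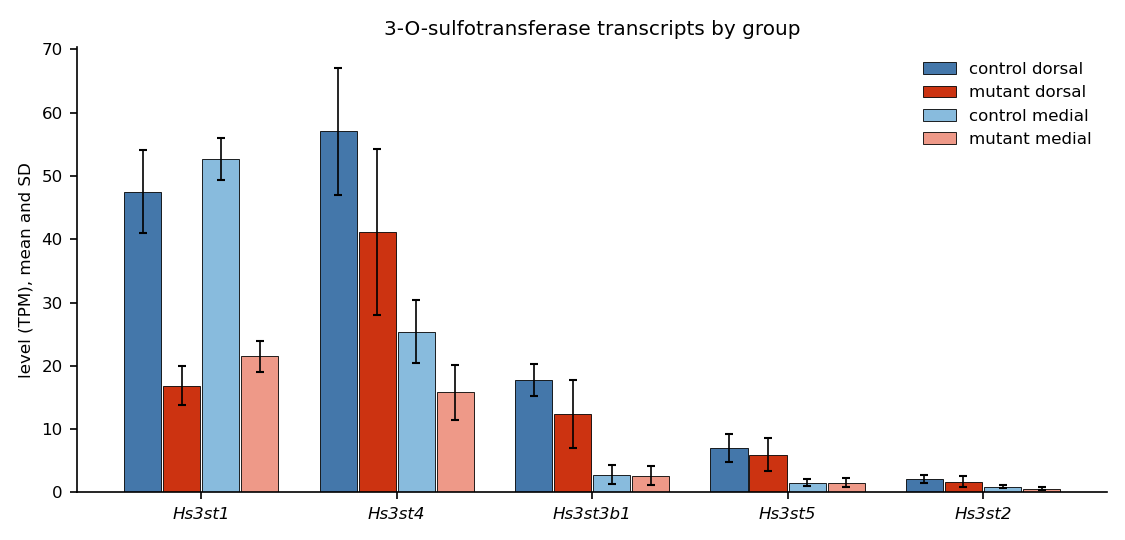
Mean TPM with SD (bars) of 5 3-O-sulfotransferase genes in the 4 groups. The Hs3st1 bars of both mutant groups (16.9 and 21.5 TPM) are lower than those of both control groups (47.5 and 52.7 TPM), and the medial bars of the other 4 genes are lower than the dorsal bars of the same genotype.

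The Sulf genes encode secreted sulfatases that edit 6-O-sulfate on finished chains. Sulf1 (chr1:12692277-12861192, plus strand) reached 1 TPM in only 8 of 19 libraries. Its changes were 0.44 ± 0.46 dorsally (limma adjusted p = 0.479) and -0.45 ± 0.47 medially (adjusted p = 0.478), and those of Sulf2 (chr2:166073089-166155663, minus strand) were 0.19 ± 0.31 (0.673) and -0.24 ± 0.32 (0.587). The 95% intervals were wide, from -1.38 to 0.48 for Sulf1 and from -0.87 to 0.39 for Sulf2 in medial cortex. Sulf2 overlaps Ncoa3 on the opposite strand, which reached at most 9.17 TPM.

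The medial libraries of both Sulf genes were uneven within each genotype. Sulf2 was 9.94, 10.3, 3.86, 4.29 and 4.78 TPM in control medial libraries 2 to 6 and 12.8, 2.26, 5.25 and 3.74 TPM in mutant medial libraries 1 to 4. Control medial libraries 2 and 3 and mutant medial library 1 thus stood above the rest. Sulf1 was 4.90, 1.74, 5.72, 0.410 and 0.385 TPM in the controls and 4.59, 0.560, 0.987 and 0.201 TPM in the mutants, with control library 4 high in addition.

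The 3 libraries with high Sulf2 (control medial 2 and 3, mutant medial 1) had Wnt3a, which defines the cortical hem at the medial edge of the cortex, at 8.76, 7.77 and 7.83 TPM. It was at 2.43 TPM in control medial library 6 and at most 0.259 TPM in every other library. Of the 6 hem and choroid plexus markers 5 passed the filter, and 4 were higher in medial than in dorsal controls, as were 17.6% of all tested genes. Wnt3a reached 1 TPM in only 4 libraries, all of them medial, Folr1 in 4, and Lmx1a and Rspo2 in 5 each. Such markers pass the filter only through the few libraries where they are high. The filter thus partly fixed this count, and nothing is drawn from it. The summed level of the 6 ranged from 1.19 to 15.9 TPM in control dorsal, 0.911 to 22.3 in mutant dorsal, 1.86 to 947 in control medial and 2.30 to 162 in mutant medial libraries. The choroid plexus gene Ttr alone reached 934 TPM in control medial library 4, where Sulf1 was highest. The 3 libraries with Wnt3a above 5 TPM hold the highest Sulf2 values, so leaving them out had to lower the medial level and bears on no link with the hem. Without them, the regional difference of Sulf2 in controls was 0.17 ± 0.17 in place of 0.60 ± 0.29, and that in mutants -0.22 ± 0.18 in place of 0.17 ± 0.34. For Sulf1 in controls it was 0.60 ± 0.41 in place of 0.90 ± 0.43.

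**Figure D4:**
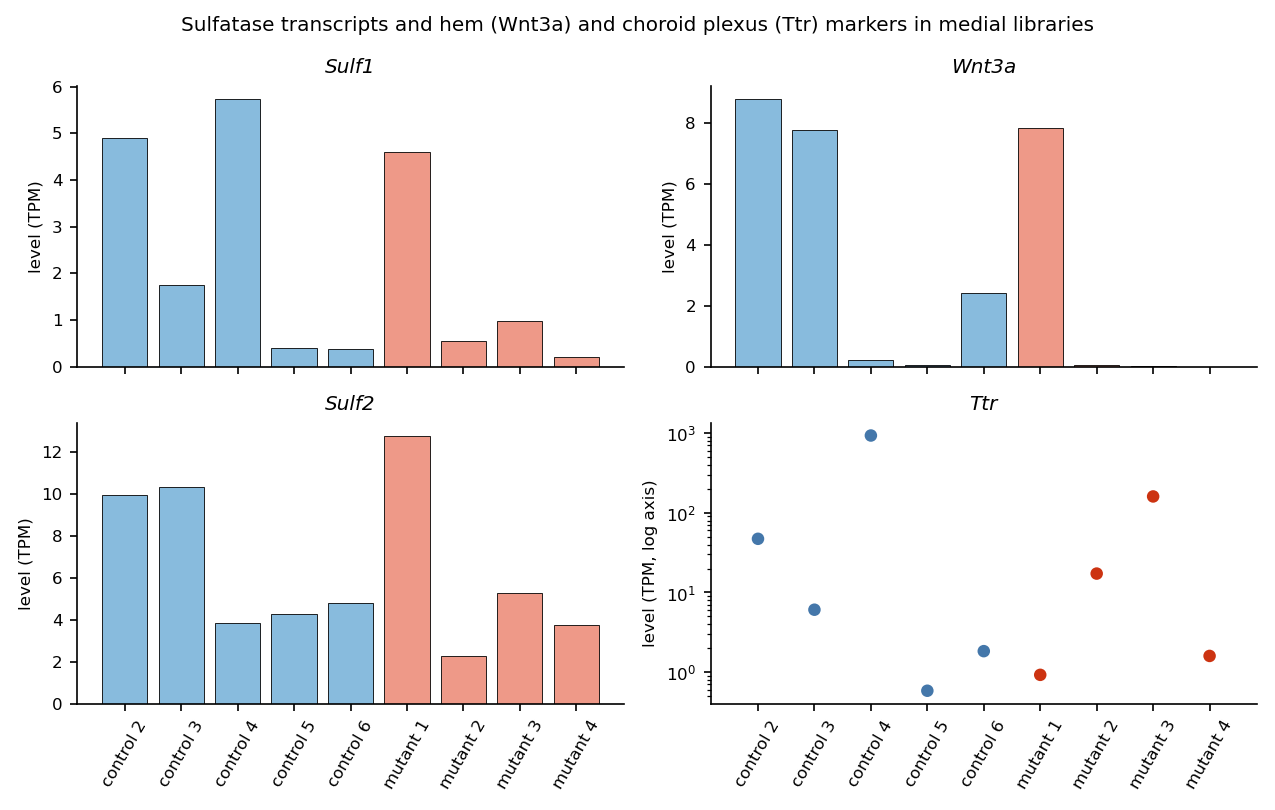
Levels in TPM of Sulf1, Sulf2 and the hem marker Wnt3a (bars), and of the choroid plexus marker Ttr (points, log axis), in each medial library (control blue, mutant red). Sulf2 is highest, from 9.94 to 12.8 TPM, in the 3 libraries with Wnt3a above 5 TPM, and Sulf1 and Ttr are both highest in control library 4.

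Whether the mutant effect differed between regions was tested directly, as medial minus dorsal effect. Of the 10 enzymes 0 passed in limma, and 0 had a 95% interval that left out 0. The intervals were taken from the standard error with a normal distribution, so they are slightly narrower than limma's test implies. Over all tested genes 0.0074% (1 gene) passed, with 451 genes at an unadjusted p under 0.05, and 49 passed with the embryo as a replicate block. For Hs3st1 the difference was 0.19 ± 0.16 (95% interval -0.12 to 0.50), for Hs6st1 0.17 ± 0.11 (-0.06 to 0.39) and for Hs2st1 -0.0043 ± 0.14 (-0.29 to 0.28). For Hs3st3b1 it was 0.51 ± 0.47 (-0.40 to 1.43) and for Sulf1 -0.89 ± 0.66 (-2.18 to 0.40), wide intervals that include differences in either direction. These intervals are from the fit without the embryo block. With the block 1255 genes had an unadjusted p under 0.05 in limma, and 0 of the 10 enzymes passed.

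Comparing regions asks how the enzymes differ along the cortex. In control cortex Hs3st3b1 was 5.26-fold, Hs6st2 2.13-fold and Hs6st1 1.41-fold lower in medial than in dorsal libraries, and Hs2st1 was 1.61-fold higher. These were the 4 of 10 enzymes called, 1 higher and 3 lower, where 32.4% of all tested genes were called (17.6% higher and 14.9% lower). The groups did not overlap for any of the 4, as for 20.5% of all tested genes (11.1% higher and 9.39% lower). The same 4 differed in the mutants, and Hs3st1 was higher at the threshold, so that 2 were higher and 3 lower, where 18.8% of tested genes were called (8.03% higher and 10.8% lower). In mutants the groups did not overlap for 1 higher and 2 lower enzymes, as for 15.2% of all tested genes (7.11% higher and 8.05% lower). All 5 mutant calls were lost when only the 2 mutant groups were fitted, where 0 genes were called in limma (3643 at an unadjusted p under 0.05). With the embryo as a replicate block, 6614 genes were called in controls (4387 without it) and 5283 in mutants (2545 without it). The neuron markers were lower medially in controls for 8 of 8 genes and the progenitor markers higher for 7 of 8. The sums of 6 interneuron markers were 38.9 to 50.8 TPM in dorsal and 12.9 to 28.7 TPM in medial controls, and 16.6 to 43.7 TPM in dorsal and 1.74 to 15.4 TPM in medial mutants, with 5 of 6 markers lower medially in controls and 6 of 6 in mutants. Within 3 of the groups they were lowest in the libraries lowest in Hs3st3b1: control medial 2 and 3, mutant dorsal 3 and mutant medial 3. The sums of 4 Cajal-Retzius cell markers were 59.8 to 73.1 TPM in dorsal and 93.9 to 156 TPM in medial controls, where 4 of 4 were higher, and 34.3 to 70.2 and 37.6 to 84.8 TPM in mutants, where 0 of 4 passed. Medially 4 of 4 Cajal-Retzius and 4 of 6 interneuron markers fell in the mutants, where 30.2% of all tested genes fell. The part of these markers in the differences between regions and genotypes was not tested.

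Hs3st3b1 was 1.34, 1.08, 3.24, 4.04 and 4.30 TPM in control medial libraries, against 14.48 to 20.5 TPM in control dorsal libraries. The groups were far apart, and the difference of -2.39 ± 0.30 (limma adjusted p = 4.89e-05) was the most negative of all tested genes. In mutants it was 1.91, 4.21, 0.912 and 3.44 TPM medially and 5.51 to 16.8 TPM dorsally, again without overlap, with a difference of -1.88 ± 0.35 (adjusted p = 0.00339). Without overlap, medial had to be lower in 5 of 5 control and 4 of 4 mutant embryos under any pairing, so these counts add nothing.

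Hs6st2 was 18.6, 21.4, 33.2, 31.1 and 33.9 TPM in control medial libraries and 16.8, 26.6, 20.3 and 28.0 TPM in mutant medial libraries. All lay below the dorsal libraries of their genotype, with differences of -1.09 ± 0.16 (limma adjusted p = 0.000138) and -0.90 ± 0.19 (adjusted p = 0.00498). The lowest control values, in libraries 2 and 3, and the lowest mutant value, in library 1, belong to the libraries with high Wnt3a. Without these, the difference was -0.81 ± 0.13 (0.00141) in controls and -0.77 ± 0.14 (0.00945) in mutants, and the dorsal change of Hs6st2 between genotypes passed (adjusted p = 0.00970).

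Hs6st1 differed by -0.50 ± 0.07 in controls (limma adjusted p = 0.000114), without overlap. In mutants the difference was -0.33 ± 0.09 (adjusted p = 0.0118) with overlapping groups, and it was lost without mutant dorsal library 2 (0.0502) or 4 (0.0534) and when only the 2 mutant groups were fitted (0.069). Hs2st1 differed by 0.69 ± 0.09 in controls (adjusted p = 7.62e-05) and 0.68 ± 0.11 in mutants (adjusted p = 0.00217), without overlap in either. Its group levels rank from control dorsal at 68.8 ± 4.14 TPM, through mutant dorsal at 91.3 ± 16.4 and control medial at 112 ± 10.99, to mutant medial at 146 ± 19.1 TPM. Mutant dorsal and control medial libraries overlapped in this order.

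For Hs3st1 the regional differences were smaller than the differences between genotypes. The regional difference was 0.15 ± 0.10 in controls (limma adjusted p = 0.271), and with the embryo as a replicate block it was 0.18 ± 0.07 (0.0428). In mutants it was 0.35 ± 0.12 (0.0499), and that call held under 10 of 30 alternatives, among them the embryo block (0.00297), and was lost without most single libraries (adjusted p up to 0.158). Medial was higher than dorsal in 5 of 5 control and 4 of 4 mutant embryos. Ext1 was 0.15 ± 0.07 higher in medial controls (adjusted p = 0.105; 0.0149 with the embryo block), in 5 of 5 embryos. Ext2 and Ndst1 did not pass, at 0.03 ± 0.08 and 0.09 ± 0.05 in controls. Sulf1 at 0.90 ± 0.43 (0.116) and Sulf2 at 0.60 ± 0.29 (0.126) did not pass in controls either. Sulf1 passed without control medial library 5 (0.0473) or 6 (0.0459), and Sulf2 without mutant medial library 1 (0.0443).

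**Figure D5:**
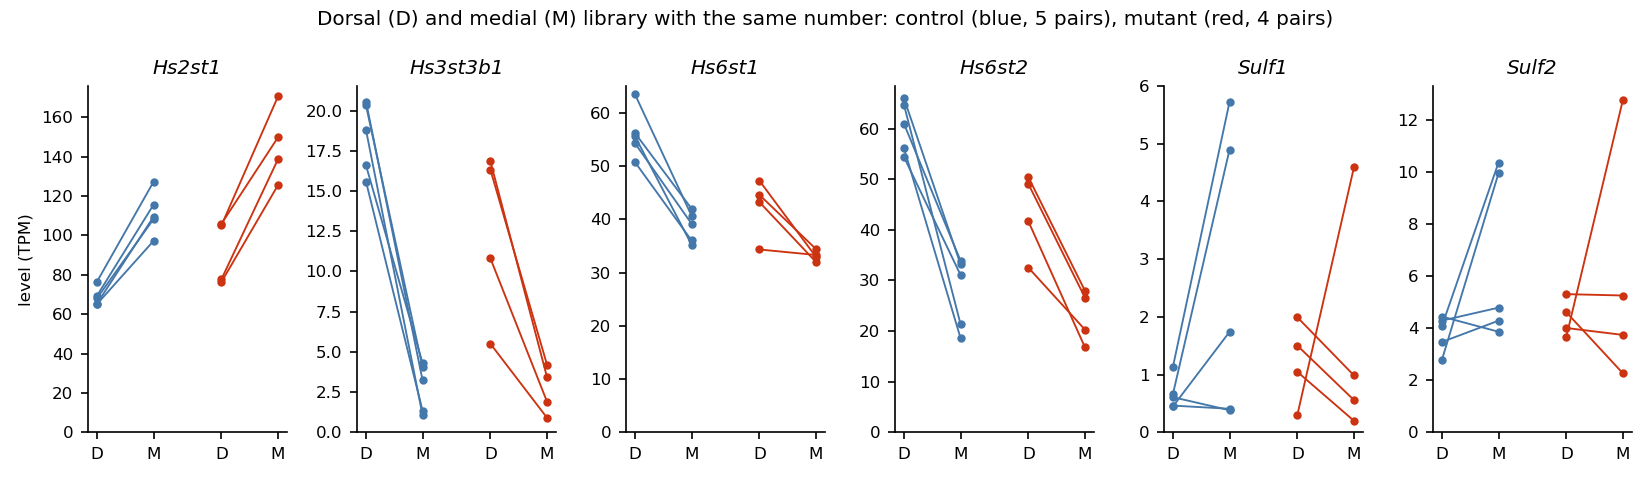
Level in TPM in the dorsal (D) and medial (M) library with the same number, joined by a line, for 6 enzymes in 5 control pairs (blue) and 4 mutant pairs (red). Lines for Hs3st3b1, Hs6st1 and Hs6st2 fall and lines for Hs2st1 rise from dorsal to medial in all 9 pairs, while Sulf1 and Sulf2 lines run both ways. For Hs3st3b1, Hs6st2 and Hs2st1 the regions did not overlap within a genotype, so any pairing would give these directions.

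Over the 19 libraries, the levels of Hs6st2 and Hs3st3b1 had a Pearson r of 0.963 and those of Hs2st1 and Hs6st2 one of -0.921, on the log2(TPM + 1) scale. The libraries share their groups and embryos, so these values are descriptions. The genes with the most similar pattern were Pik3ip1 (r = 0.976), Maged1 (0.961) and Nrg1 (0.961) for Hs3st1, Adamts3 (0.987) for Hs6st2, Tom1l1 (0.979) for Hs2st1 and Gab2 (0.969) for Hs6st1, over the same 19 libraries. They were Parn (0.934) for Ext2, Serpine2 (0.932) for Sulf2, Ppm1f (0.885) for Ext1, Dyrk2 (0.882) for Ndst1 and Calml4 (0.857) for Sulf1.

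Of 15 other chain enzymes, 8 passed the filter. In mutants 0 rose and 1 fell dorsally, and 0 rose and 3 fell medially. Of all tested genes 9.93% rose and 27.6% fell dorsally, and 9.44% rose and 30.2% fell medially. Glce, the C5-epimerase that acts with the 2-O-sulfotransferase, changed in the opposite direction to Hs2st1: it fell from 34.2 ± 5.31 to 25.3 ± 3.22 TPM medially, by 0.42 ± 0.10 on the log2 scale (limma adjusted p = 0.00329). Its dorsal call, -0.25 ± 0.10 (0.0482), was lost under 16 alternatives. Extl3, which starts the chain, fell by 0.19 ± 0.05 medially (0.00341), and this did not pass with median-ratio rescaling or quantile normalization. Between regions of control cortex 3 of the 8 were higher medially (Glce, Extl3, Ndst2) and 4 were lower. Of all tested genes 17.6% were higher and 14.9% lower. The Ndst2 call, 0.22 ± 0.07 (0.0337), was lost under 8 alternatives (adjusted p up to 0.128), among them no filter and the omission of any 1 of control dorsal libraries 2, 4 and 6 or control medial libraries 3, 5 and 6. The Extl3 call, 0.15 ± 0.04 (0.0112), was lost without the libraries with high Wnt3a (0.160). The 4 lower ones were Hs3st5 at -1.62 ± 0.24, Hs3st4 at -1.14 ± 0.19, Ndst3 at -0.85 ± 0.15 and Hs3st2 at -0.69 ± 0.18. The same 4 were lower medially in mutants and none of the 8 was higher, where 10.8% of all tested genes were lower and 8.03% higher. These mutant calls were lost when only the 2 mutant groups were fitted, and that of Hs3st2 also without mutant dorsal library 2 or 4 or mutant medial library 3 (adjusted p up to 0.102). Ndst1 made up 71.9 ± 1.91% of the summed Ndst level in control dorsal libraries and 68.0 ± 1.76% in mutant dorsal libraries.

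Of 13 core protein genes, 12 were tested, and 2 rose and 5 fell dorsally and 2 rose and 4 fell medially. The shares over all tested genes were 9.93% higher and 27.6% lower dorsally, and 9.44% higher and 30.2% lower medially. The glypican gene Gpc3 rose from 8.97 to 20.1 TPM dorsally (0.99 ± 0.23, limma adjusted p = 0.00310) and from 12.6 to 43.9 TPM medially (1.71 ± 0.24, 4.17e-05). The syndecan gene Sdc1 rose by 0.42 ± 0.06 and 0.45 ± 0.07. Gpc2 fell by 0.38 ± 0.11 and 0.50 ± 0.11, and Agrn, which encodes agrin, by 0.66 ± 0.13 medially. Between regions of control cortex 4 core protein genes were higher medially, led by Col18a1 (0.81 ± 0.16), and 2 were lower, among them Gpc2 (-0.43 ± 0.10). Over all tested genes 17.6% were higher and 14.9% lower.

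Of 13 genes for the linkage sugars and precursors, 12 were tested, and 1 rose and 2 fell dorsally and 0 rose and 4 fell medially. The decreases of B3gat3 in both regions, and of Slc35b3 and Fam20b medially, were not called with median-ratio rescaling. Their highest limma adjusted p under any alternative was 0.125, 0.234 and 0.54 in this order. Beside this list and those below, 9.93% of all tested genes rose and 27.6% fell dorsally. Medially 9.44% rose and 30.2% fell. B4galt7, which adds a galactose of the linkage region, fell by 0.31 ± 0.06 and 0.32 ± 0.06, and Pxylp1, the phosphatase of the linkage xylose, rose by 0.52 ± 0.13 dorsally. Of 8 lysosomal genes of heparan sulfate breakdown, 0 rose and 2 fell in each region. Ids, the sulfatase that removes 2-O-sulfate from iduronic acid, was among them, at -0.31 ± 0.09 dorsally (limma adjusted p = 0.0129) and -0.38 ± 0.10 medially (0.00394). The dorsal call was lost with median-ratio rescaling, quantile normalization and without mutant dorsal library 3 (adjusted p up to 0.0719). Of 15 tested genes for chondroitin and dermatan sulfate, which share the linkage region, 1 rose and 4 fell dorsally and 1 rose and 6 fell medially. Chst11, a chondroitin 4-O-sulfotransferase, rose by 0.56 ± 0.10 and 0.59 ± 0.11, while Ust, the 2-O-sulfotransferase for uronic acid in chondroitin and dermatan sulfate, fell by 1.06 ± 0.18 and 0.71 ± 0.19. Of the genes on these lists 0 passed the limma test of the difference between regions. For 3 of them (Chsy3, Gpc3 and Pxylp1) the 95% interval, from the normal distribution, left out 0.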

How the data were processed

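RNA was sequenced in 19 libraries of E14.5 cortex. Per the labels, extraction used the RNeasy Micro Kit and library preparation the TruSeq Stranded Total RNA Kit; the build was mm10 per the submitters' processing notes. The choice of aligner, quantifier, annotation and strand setting is not given in the sources used here. The authors deposited TPM per gene symbol. Each column sums to 1000000, so the depth is unknown and no counting error is given. A gene was tested when 4 or more libraries had 1 TPM or more (13520 genes). Models on log2(TPM + 1), with 1 mean per group over the 19 libraries, were fitted by limma 3.58.1 under R 4.3.3 with statmod 1.5.0, using trended and robust empirical Bayes. In each of 5 comparisons p was adjusted by Benjamini-Hochberg over all tested genes, at a threshold of 0.05. The fit was tested on simulated data with independent libraries, which does not cover the correlation between libraries of the same embryo (0.515 over all tested genes).

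Members, gene lists and tests were chosen with earlier results of these data known. Named genes are the members, up to 4 per list and comparison by adjusted p, every other chain enzyme that passed, and the genes most alike by Pearson r; a few of them are left out here. To see whether title numbers pair libraries, deviations from group means were correlated: dorsal with medial, within a genotype, gave r of 0.549 to 0.795 in 9 pairs, and control with mutant, within a region, gave -0.436 to 0.138 in 7 pairs. Numbers were therefore read as embryos within a genotype only, a reading taken from the values and not from the labels. Alternatives were other pseudocounts, no filter, median-ratio rescaling, quantile normalization, blocks by embryo or number, sex as a covariate, fits of the compared groups only, each library left out, and, chosen after seeing the data, the 3 libraries with Wnt3a above 5 TPM left out. Gene positions are from GENCODE M21 (GRCm38, the assembly of mm10). Upstream sequences are from RefSeq (GRCm38.p6), read with Python 3.11.15, and plots were drawn with matplotlib 3.10.9.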

Additional observations from a re-analysis of the deposited data

Results flagged for a closer look

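Among 40 sets of libraries checked for a single distant value (10 enzymes in 4 groups), 2 held one, and chance alone gives about 1 in 20. Ext2 was low in control dorsal library 5, at 16.3 TPM, with a gap to the nearest library that was 0.646 of the whole range of the group. Hs2st1 was high in control dorsal library 3, at 76.5 TPM, with a gap of 0.629 of the range. This Hs2st1 value is the one that the lowest mutant dorsal library, at 76.4 TPM, fell just below.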

How the results depend on the processing

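Of 1485 values of the 50 enzyme results under the alternatives, 1377 kept their direction and side of the threshold, 60 lost a call, 16 gained one and 32 reversed. Only a called result can lose a call, and for the difference between regions 0 of the 10 enzymes were called. The number kept therefore does not measure how stable the calls are. Of 2359 values of 79 results on other named genes, 2219 were kept and 140 lost a call. The calls of Hs3st1 and Hs2st1 between mutants and controls in both regions passed under all alternatives. So did the dorsal call of Hs6st1 between mutants and controls and the 4 regional calls in controls.

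Numbers of genes called: the difference between regions gave 0 genes with no filter (839 at an unadjusted p under 0.05, limma) and without the 3 libraries with high Wnt3a (327), 49 with the embryo as a replicate block, and 0 to 3 when 1 library was left out. Control regional calls were 6614 with the embryo block and 2169 without the high Wnt3a libraries. Mutant regional calls were 5283 with the embryo block, 0 when only the 2 groups were fitted (3643 at an unadjusted p under 0.05), where the calls of Hs2st1, Hs3st3b1 and Hs6st2 (0.0569), Hs6st1 (0.069) and Hs3st1 (0.133) were lost, and 1138 to 3678 when 1 library was left out (1138 without mutant dorsal 2, 1305 without mutant medial 3, 1372 without mutant dorsal 4). The cause was not tested. The embryo block changed no call of an enzyme beyond those named above. With the title number as a fixed replicate block across genotypes, which does not pair embryos, Ext2 passed in dorsal (0.0153) and medial (0.0391) cortex.

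Reversals were among values that did not pass. Hs2st1, difference between regions: 0.0084 with median-ratio rescaling, 0.0077 with sex, 0.064 without the high Wnt3a libraries, and -0.083 to 0.072 leaving out 1 library. Hs3st3b1, medial mutants: 0.0078 with median-ratio rescaling, 0.087 with quantile normalization, 0.16 with the number as a replicate block, and -0.28 to 0.20 leaving out 1 library. Sulf1: 0.12 in medial mutants with sex; between mutant regions -0.16 with pseudocount 0.1, -0.037 with pseudocount 0.5, -0.45 without the high Wnt3a libraries, and -0.45 to 0.29 leaving out 1 library. Sulf2 between mutant regions: -0.22 without the high Wnt3a libraries and -0.22 to 0.47 leaving out 1 library, and in medial mutants -0.64 to 0.056. Leaving out 1 library also gave -0.000125 to 0.080 for Ext1 between mutant regions, and for Ext2 -0.012 to 0.098 in the difference between regions and -0.021 to 0.085 between control regions. The cause was not tested. TPM keep no depth, so low genes such as Sulf1 cannot be given a counting error.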
